A study of Mus musculus with 35 samples.

Results

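The genes described here are the nuclear-encoded subunits of the 5 oxidative phosphorylation complexes and cytochrome c, chosen by symbol alone: rows of the expression matrix whose symbols follow the Nduf, Sdh, Uqcr, Cyc1, Cycs, Cox4 to Cox8 and Atp5 subunit patterns, with rows whose symbol carries -ps left out. The rule found 87 of 22180 genes, of which 38 belong to complex I, 4 to complex II, 9 to complex III, 18 to complex IV, 17 to complex V, and 1 is cytochrome c itself. RefSeq lists 84 of the 87 as protein-coding, while Cox6c2, Ndufs6b and Ndufa11b, which the symbol rule keeps, are annotated as pseudogenes. Ndufa4 and Ndufa4l2 were counted with complex IV, where their proteins reside. Every one of the 87 passed the filter on low values in each comparison, and 82 of them were above 0 in all 35 libraries.

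The study cultured enteric glia, the glial cells of the gut's own nervous system, and asked how the substrate under the cells shaped their transcriptome. Neurospheres from the small-intestinal muscularis externa of wildtype BL6 mice were differentiated on 1 of 3 coatings, for 3 days by the labels although the study's methods give a longer time, and were then left naive or given 10 ng/ml of the inflammatory cytokine IL-1β for 24 h. The coatings were Matrigel, which is extracted from basement membrane, laminin, a single protein of such membranes, and the synthetic polymer poly-L-ornithine. These 6 culture groups were set beside RiboTag naive libraries from Sox10iCreERT2 Rpl22HA/+ Cre+ mice, in which tamoxifen puts an HA tag on ribosomal protein Rpl22 in cells that use the Sox10 promoter, and ribosome-bound RNA was pulled down from lysed naive muscularis. The mice of the study were 8 to 16 weeks old, each of the 7 groups held 5 libraries that the labels call biological replicates, and nothing in the labels says whether same-numbered libraries share animals, so p-values measure the spread between these libraries. The RiboTag mice differ from the wildtype cultures in genotype and tamoxifen, and RiboTag libraries came from ribosome pulldown and a different RNA kit (RNeasy Micro against Mini), so tissue, genotype, pulldown and kit cannot be told apart in any comparison with cultures.

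Totals of normalized counts ran from 7522180 to 9185840 per library, no 2 libraries held identical values, and the depth before scaling is unknown. The glial markers Sox10 and S100b were detected in every library, with Sox10 at 13097 to 20215 in RiboTag and at 4923 to 12590 in naive cultures. Markers of other cells were present as well. The 12 smooth muscle markers summed to between 34942 and 65425 CPM (counts scaled to a common library total) in RiboTag against 1137 to 5912 in naive cultures, and 12 of 12 were called higher in RiboTag. Myh11, the smooth muscle myosin heavy chain, alone read 110446 to 426925 normalized counts in RiboTag and 0 to 100.0 in naive cultures. Fibroblast markers went the other way, at 979 to 1296 CPM in RiboTag and 3135 to 11368 CPM in naive cultures, with 7 of 10 called lower. Called higher in RiboTag too were 10 of 12 enteric neuron (1 lower), 8 of 10 macrophage and 5 of 6 interstitial cell of Cajal markers. So were 3 of 6 tested endothelial and 2 of 5 mesothelial markers. The 12 enteric glia markers, with 10 called higher, summed to 4328 to 6939 CPM in RiboTag and 1044 to 2973 CPM in naive cultures. Among all genes tested 31.3% were called higher. No marker of these lists was at 0 in all RiboTag libraries, and the part of the other cells in the results below was not tested. In such bulk libraries fewer cells of a type and less RNA per cell cannot be told apart.

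Oxidative phosphorylation couples electron transport to ATP synthesis in the inner mitochondrial membrane. Complex I takes electrons from NADH and complex II from succinate, complex III passes them through cytochrome c to complex IV, which reduces oxygen, and complex V uses the resulting proton gradient to make ATP. Nearly all subunits are encoded in the nucleus and translated in the cytosol, while a small set of core subunits of complexes I, III, IV and V is encoded by mitochondrial DNA and translated on separate mitochondrial ribosomes. Complex II is entirely nuclear-encoded. Astrocytes and other glia are known for a high rate of glycolysis beside respiration.

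Many genes of this family lack a TATA box and carry sites for the nuclear respiratory factor NRF1, the ETS factor GABPA (NRF2) and YY1 near their start. The RefSeq promoter windows of build GRCm38.p6, which run from 250 bases before to 50 bases after the annotated start, covered 68 of the 87 members with 73 windows. An NRF1 core (CGCANGCG, on either strand) was found in 41.1% of the 73 windows against 8.21% of all 32851 windows, the GABPA motif CCGGAAG in 23.3% against 8.86%, and the YY1 motif AAGATGGC in 13.7% against 2.75% (both strands, and matches of different motifs could overlap). At least 1 of the 3 was found in 64.4% of the members' windows and in 17.6% of all windows. Member windows were also richer in G and C, with a median of 57.7% against 52.7%. A match is a run of letters and not a bound site. Of the 27 members with an NRF1 match 14 were lower in RiboTag than in naive cultures, as were 28 of the 41 with a window and no match, beside 63.2% of all members and 47.8% of all genes with a mean of at least 500. The 5 windows below belong to members on which the results turn: Ndufc1 and Atp5l were among those lower in RiboTag, Sdha was higher there, and Atp5k and Cox6b2 were lower after IL-1β. They lie at chr3:51408906-51409205 (Ndufc1), chr9:44920693-44920992 (Atp5l), chr13:74350191-74350490 (Sdha), chr5:108434350-108434649 (Atp5k) and chr7:4753045-4753344 (Cox6b2), all on the minus strand, and are written 5′ to 3′ along the gene with matches to the 3 motifs in capitals.
Ndufc1: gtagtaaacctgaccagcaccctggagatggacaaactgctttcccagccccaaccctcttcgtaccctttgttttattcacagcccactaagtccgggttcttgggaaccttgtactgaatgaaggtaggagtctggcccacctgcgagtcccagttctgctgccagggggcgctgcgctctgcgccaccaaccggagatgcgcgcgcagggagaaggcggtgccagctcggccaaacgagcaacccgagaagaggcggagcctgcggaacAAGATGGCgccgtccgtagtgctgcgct
Atp5l: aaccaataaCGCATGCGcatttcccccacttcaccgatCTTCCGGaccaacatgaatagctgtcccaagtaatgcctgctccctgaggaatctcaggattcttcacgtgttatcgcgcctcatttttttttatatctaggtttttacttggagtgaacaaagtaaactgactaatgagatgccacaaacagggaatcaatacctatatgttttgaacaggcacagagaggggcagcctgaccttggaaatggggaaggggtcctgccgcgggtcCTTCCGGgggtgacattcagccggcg
Sdha: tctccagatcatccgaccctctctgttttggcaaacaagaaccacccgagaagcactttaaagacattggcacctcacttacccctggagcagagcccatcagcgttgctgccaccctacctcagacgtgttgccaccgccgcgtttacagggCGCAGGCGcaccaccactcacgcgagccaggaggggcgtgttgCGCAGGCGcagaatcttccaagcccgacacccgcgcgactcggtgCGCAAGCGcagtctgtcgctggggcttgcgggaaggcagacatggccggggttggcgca
Atp5k: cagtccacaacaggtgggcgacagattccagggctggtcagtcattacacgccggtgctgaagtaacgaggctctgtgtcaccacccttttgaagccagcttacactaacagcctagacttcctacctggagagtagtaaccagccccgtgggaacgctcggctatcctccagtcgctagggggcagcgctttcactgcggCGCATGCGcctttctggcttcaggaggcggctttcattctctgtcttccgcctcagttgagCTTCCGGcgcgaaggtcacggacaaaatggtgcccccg
Cox6b2: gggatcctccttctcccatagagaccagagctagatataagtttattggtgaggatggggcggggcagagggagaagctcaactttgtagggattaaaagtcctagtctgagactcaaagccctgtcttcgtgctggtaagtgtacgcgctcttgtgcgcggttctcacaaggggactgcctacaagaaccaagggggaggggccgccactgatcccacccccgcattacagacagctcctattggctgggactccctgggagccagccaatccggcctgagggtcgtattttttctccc

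Ndufc1 held 1 YY1 match, 22 bases after the start. Atp5l held 1 NRF1 match and 2 GABPA matches. Sdha held 3 NRF1 matches within the last 97 bases before its start, Atp5k held 1 NRF1 and 1 GABPA match, and Cox6b2 held none of the 3.

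Most members were abundantly sequenced. The mean over all 35 libraries was at least 500 normalized counts for 74 of the 87 members and at least 1000 for 57, and below 50 for 4. Because each transcript is read near its 3′ end, transcript length does not enter these values. The most abundant row of each complex was Cox8a in complex IV (mean 6615), Atp5g3, the c subunit of the ATP synthase rotor, in complex V (4647), Uqcrq, a small complex III subunit, in complex III (3693), Ndufa2, an accessory subunit, in complex I (3393) and Sdhb, the iron-sulfur subunit, in complex II. At the other end stood the muscle-type isoforms of complex IV, Cox6a2 (34.2), Cox7a1 (25.1) and Cox8b (23.1), and the pseudogene Ndufa11b (19.4). The matrix, made after a filter on low counts, held no rows under the symbols Cox4i2, Cox7b2 and Cox8c.

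Summed over the family, the naive cultures devoted the largest share of their counts to these genes and RiboTag the smallest. The 87 members made up 1.73% ± 0.09 of normalized counts in naive cultures (SD, n = 15, range 1.56% to 1.87%), 1.59% ± 0.10 in IL-1β-treated cultures (n = 15, 1.39% to 1.73%), and 1.41%, 1.37%, 1.197%, 1.34% and 1.26% in the 5 RiboTag libraries, mean 1.32% ± 0.09. RiboTag lay below every naive culture and overlapped the lower end of the IL-1β cultures. Naive coatings were close to each other at 1.76% ± 0.15 for Matrigel, 1.74% ± 0.02 for laminin and 1.69% ± 0.07 for poly-L-ornithine (n = 5 each), so their order was within their spread. By complex, the RiboTag sum was 0.80 times the naive culture sum for complex I, 0.91 for complex II, 0.64 for complex III, 0.70 for complex IV and 0.79 for complex V. The complex III sum did not overlap between RiboTag (0.0919% to 0.112%) and naive cultures (0.144% to 0.188%), and neither did complex IV (0.286% to 0.358% against 0.403% to 0.506%), complex V (0.385% to 0.431% against 0.458% to 0.561%) or complex I (0.392% to 0.487% against 0.4943% to 0.5999%). Complex II overlapped over most of its range, at 0.0369% to 0.0548% against 0.0379% to 0.0613%. These sums are descriptions without a test.

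The 13 subunits encoded by mitochondrial DNA stood the other way round. They took 7.24%, 5.92%, 5.20%, 4.80% and 5.73% of the counts in RiboTag and 3.06% ± 0.33 in naive cultures (SD, n = 15, 2.58% to 3.56%), without overlap. The ratio of the mitochondrially encoded to the nuclear-encoded sum was therefore 4.38 ± 0.56 in RiboTag (n = 5, 3.57 to 5.12) against 1.77 ± 0.17 in naive cultures (1.48 to 2.00). The largest difference in counts was that of mt-Nd4, with a mean of 199832 in RiboTag and 73485 in naive cultures. By contrast, mt-Atp6 was at 39874 against 38625 and mt-Nd5 at 2898 against 3065. Of the 13 log2 fold changes 11 were above 0 and 2 below. How these transcripts, read by mitochondrial ribosomes, came into the pulldown was not tested. Another large class, the cytosolic ribosomal proteins, took 2.63% to 3.38% in RiboTag and 6.96% to 8.60% in naive cultures.

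**Figure D1:**
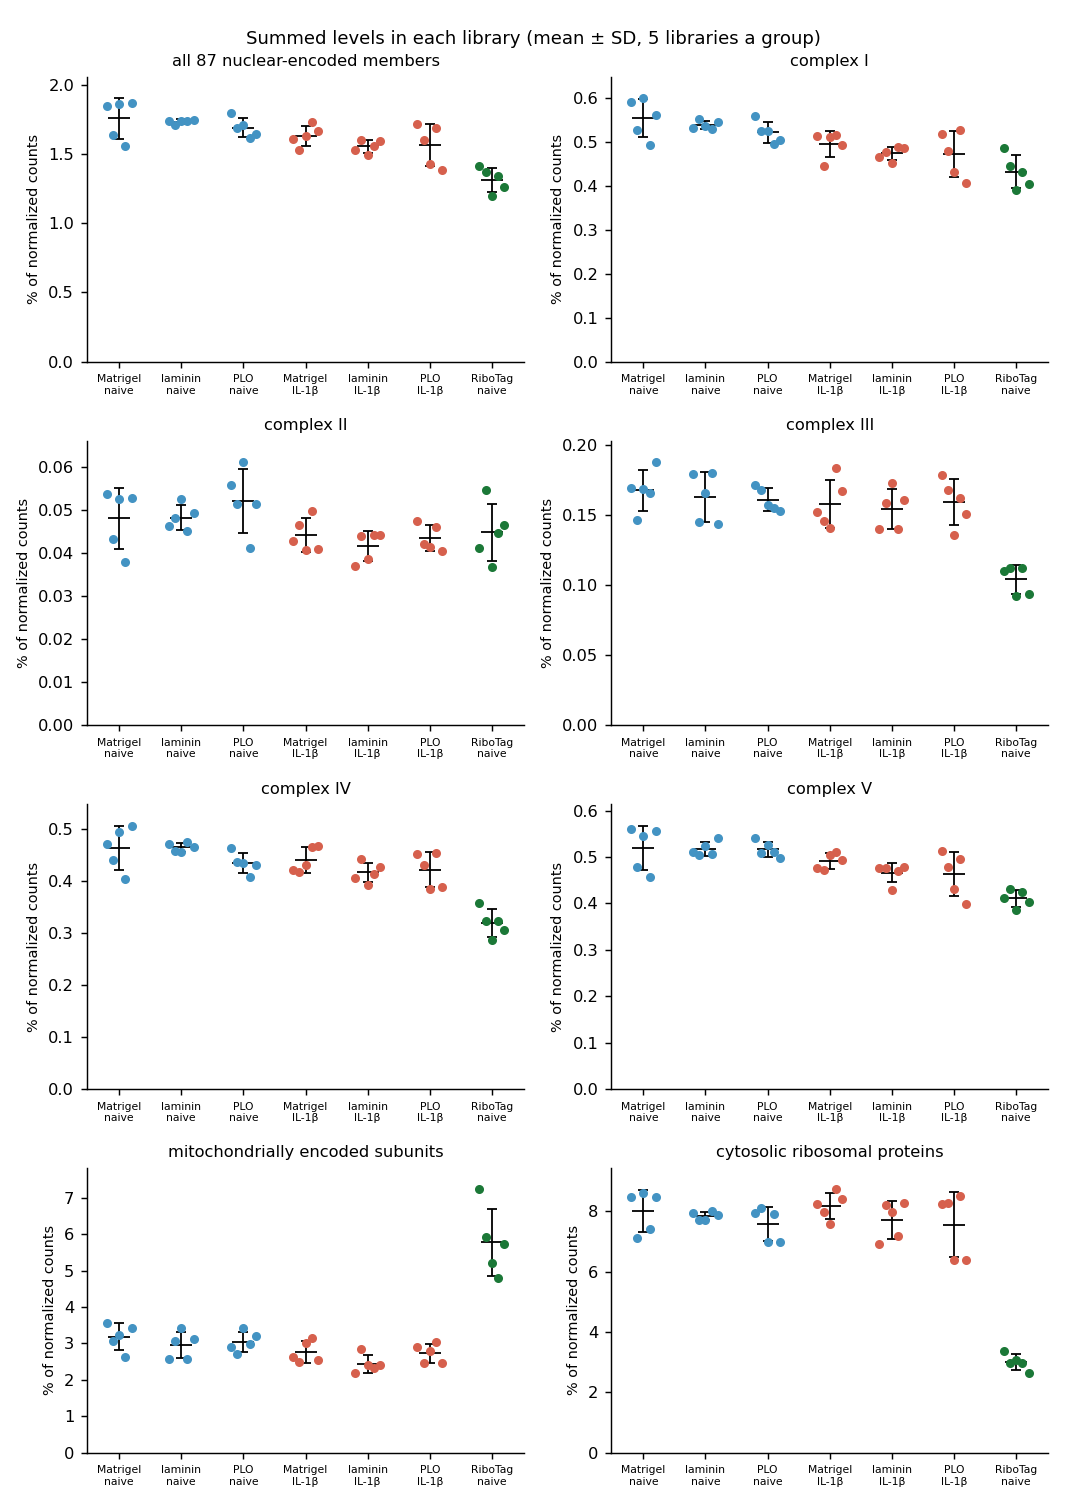
Summed levels as percent of all normalized counts in each library (y axis from 0), for the 87 members, for complexes I to V, for the 13 mitochondrially encoded subunits and for the cytosolic ribosomal proteins; each point is 1 of 5 libraries in a group, bars give the mean ± SD, and PLO is poly-L-ornithine. The member sum is lowest in RiboTag (1.197% to 1.41%), complex II overlaps between RiboTag and naive cultures, and the mitochondrially encoded sum is highest in RiboTag (4.80% to 7.24%).

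How far did each subunit differ between the RiboTag pulldown libraries and naive cultures? Of the 87 members, 55 were lower in RiboTag, 5 were higher and 27 did not pass the test (limma on log2(normalized count + 2), Benjamini-Hochberg adjusted p under 0.05 over the 20320 genes tested). The 5 became 9 with library totals set equal, 8 with limma-voom and 10 against IL-1β-treated cultures. Among all genes tested 14.1% were called lower and 31.3% higher. Abundant genes lean the other way: of the 2949 genes with a mean of at least 500, 47.8% were called lower and 24.5% higher, and 63.2% of the members were called lower. The median log2 fold change was -0.63 over the members, +0.32 over all genes tested and -0.33 over the abundant genes. In 27 of the 87 members every RiboTag library lay below every naive culture library. That held for 5.93% of all genes tested. Among the 2949 genes with a mean of at least 500 it held for 894, a share close to that of the members. In 1 member, Ndufb2, every RiboTag library lay above, which held for 12.2% of all genes tested and for 407 of those 2949. Quantile normalization moved the median of all genes to -0.16 and left that of the members at -0.61.

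**Figure D2:**
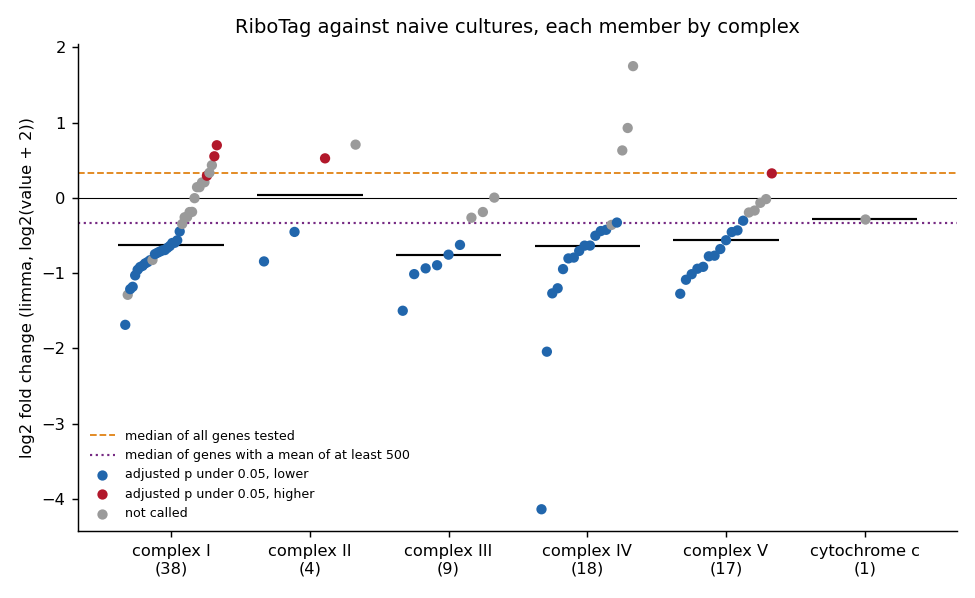
Log2 fold change of each member, RiboTag against the mean of the 3 naive culture groups (y axis; limma on log2(value + 2)), by complex with the number of members in brackets; black bars are medians, blue and red points passed the test as lower or higher, the orange dashed line is the median of all genes tested and the purple dotted line that of genes with a mean of at least 500. Most points of complexes III, IV and V lie below both lines, and the 5 red points are Ndufb2, Ndufs8, Ndufb8, Sdha and Atp5h.

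In complex I, 21 of 38 subunits were lower and 3 higher, with a median of -0.62. The largest fall was that of Ndufc1, a small membrane-arm subunit (chr3:51405479-51408955). It read 501, 548, 656, 717 and 790 normalized counts in the 5 RiboTag libraries against a lowest, median and highest value of 1692, 2074 and 2401 in the 15 naive culture libraries. The groups were far apart, and the log2 fold change was -1.69 ± 0.12 (SE, adjusted p = 4.2e-14). Ndufa7 (-1.21 ± 0.12, adjusted p = 4.0e-10) and Ndufb6 (-1.18 ± 0.23, adjusted p = 9.8e-05), both accessory subunits, followed among the members called. For Ndufb6, 1 Matrigel naive library at 274 lay below all RiboTag values, which ran from 331 to 495.

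Ndufb2, an accessory subunit of the membrane arm (chr6:39592565-39599843), was the clearest exception. Its 5 RiboTag values were 1667, 1675, 1695, 2086 and 2376, against 915, 1164 and 1364 as the lowest, median and highest in naive cultures. Without overlap between groups, its level was higher by 0.70 ± 0.13 on the log2 scale (adjusted p = 1.8e-05). Ndufs8, which carries 2 iron-sulfur clusters, rose by 0.55 ± 0.19 (adjusted p = 0.014), from 226 to 613 in naive cultures to 469 to 767 in RiboTag. Ndufb8 was at the edge of the test, at 0.29 ± 0.12 (adjusted p = 0.049), and lost its call in 18 of 35 alternative fits.

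The 7 nuclear-encoded core subunits, which hold the flavin and the iron-sulfur clusters, had a median of +0.21. Ndufs8 was higher, while Ndufs1, Ndufv2 and Ndufs7 had values of 0.43, 0.33 and 0.21 and did not pass. The 31 accessory members, a group that includes the short copies, had a median of -0.69 with 20 lower and 2 higher. This split was made after the values had been seen and the difference between the subsets was not tested.

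Complex II, whose 4 subunits also form the succinate dehydrogenase of the tricarboxylic acid (TCA) cycle, was split. Sdha, the flavoprotein that oxidizes succinate (chr13:74322255-74350240), read 1341, 1395, 1403, 1542 and 1723 in RiboTag against 814, 1015 and 1411 as the lowest, median and highest in naive cultures. Only the top naive values reached the RiboTag range, and Sdha rose by 0.52 ± 0.14 (adjusted p = 0.0016). Sdhb, its iron-sulfur partner (chr4:140961271-140979198), read 730, 1086, 1171, 1176 and 1227 in RiboTag against 1575 to 2197 in naive cultures. The groups did not overlap, and Sdhb fell by 0.84 ± 0.12 on the log2 scale (adjusted p = 6.0e-07). Of the membrane anchors, Sdhc fell (-0.45 ± 0.15, adjusted p = 0.012), and Sdhd, at 81.2 to 202 in RiboTag and 14.0 to 171 in naive cultures, had a value of 0.71 ± 0.41 that did not pass.

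In complex III, 6 of 9 subunits were lower and none higher, with a median of -0.76. Uqcrq (chr11:53427922-53430831), a small subunit of the dimeric complex, fell most: the RiboTag values were 1147, 1247, 1287, 1460 and 1764, against 2822, 4443 and 5481 as the lowest, median and highest in naive cultures. The groups did not overlap although the naive libraries themselves spread widely, and the log2 fold change was -1.50 ± 0.16 (adjusted p = 6.6e-09). The other small subunits Uqcrb (-1.01), Uqcr10 (-0.94) and Uqcr11 (-0.90) were lower without overlap, as was the Rieske iron-sulfur protein Uqcrfs1 with overlap (-0.76). The core protein Uqcrc1 was at 0.00 ± 0.12 while its partner Uqcrc2 was lower (-0.63 ± 0.20, adjusted p = 0.0084). Cyc1, the cytochrome c1 heme subunit, was at 440 to 668 in RiboTag and 374 to 852 in naive cultures and did not pass (adjusted p = 0.43). The mobile carrier Cycs did not pass either (-0.28 ± 0.17, adjusted p = 0.20).

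**Figure D3:**
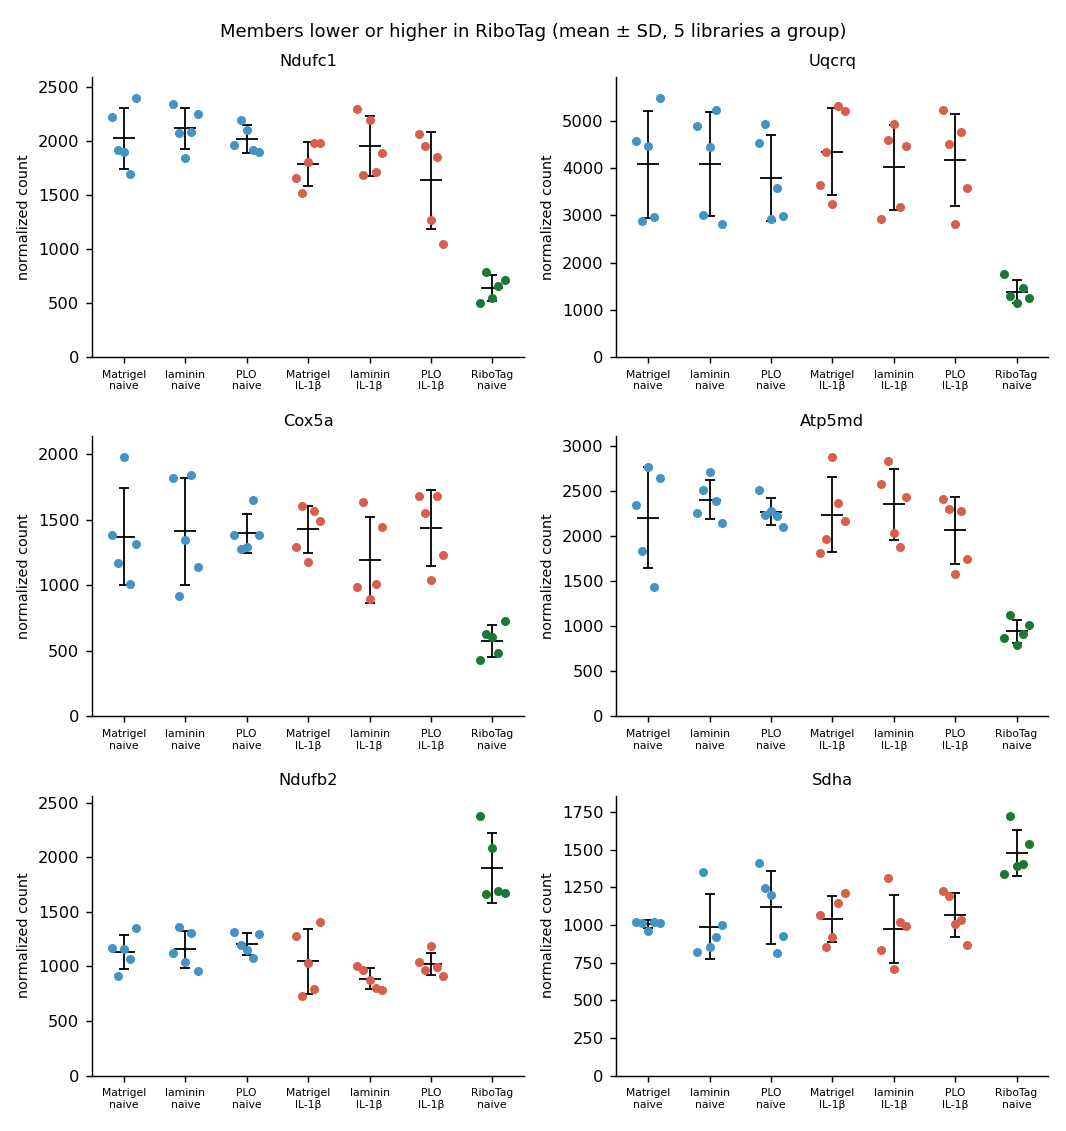
Normalized counts of 6 members in each library (y axis from 0) over the 7 groups; points are libraries, bars the mean ± SD of 5, and PLO is poly-L-ornithine. For Ndufc1, Uqcrq, Cox5a and Atp5md all 5 RiboTag points lie below all naive culture points, for Ndufb2 all lie above, and for Sdha the RiboTag points (1341 to 1723) overlap the highest naive cultures.

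In complex IV, 14 of 18 members were lower and none higher, with a median of -0.63. Cox5a, which with Cox4 forms an early assembly unit on the mitochondrially encoded catalytic core (chr9:57517328-57532427), read 430, 479, 607, 628 and 725 in RiboTag against 916, 1347 and 1976 as the lowest, median and highest in naive cultures. The groups did not overlap and the log2 fold change was -1.27 ± 0.16 (adjusted p = 3.1e-08). The main isoforms Cox7a2 (-0.95), Cox6a1 (-0.80), Cox6b1 (-0.79) and Cox8a (-0.42) were each lower without overlap. Cox7b (-0.71 ± 0.15), Cox7a2l, a relative of Cox7a2 (-0.50 ± 0.11), and Ndufa4 (-0.64 ± 0.18) were lower with overlap. Cox4i1 was lower on average only (-0.33 ± 0.13, adjusted p = 0.034): its RiboTag libraries ran from 2672 to 6110 and held both the lowest and the highest value of the comparison.

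Several complex IV subunits have a second isoform for particular tissues. Cox6b2 (chr7:4751792-4753094), known as the testis form of Cox6b, was at 62.2, 121, 128, 144 and 146 in RiboTag against 184, 438 and 1134 as the lowest, median and highest in naive cultures. The groups did not overlap and the log2 fold change was -2.04 ± 0.26 (adjusted p = 5.9e-08). Cox6b2 made up 12.2% ± 5.1 of the Cox6b2 and Cox6b1 pair in naive cultures and 5.40% ± 1.83 in RiboTag. Against IL-1β-treated cultures in place of naive ones its difference was -0.63 and did not pass (adjusted p = 0.10). Cox6a2, a heart and skeletal muscle isoform, was listed at 0 in all 5 RiboTag libraries and at 3.54 to 73.4 in naive cultures (adjusted p = 2.4e-06 on the log2 scale), so no fold is given. Cox7a1 and Cox8b, the other muscle isoforms, did not pass against naive cultures, and both were called higher in RiboTag against IL-1β-treated cultures (3.24 ± 0.88, adjusted p = 0.0025, and 3.38 ± 0.80, adjusted p = 6.5e-04). Cox7a1 read 7.29 to 80.8 in RiboTag and 0 to 111 in naive cultures, and Cox8b read 38.8 to 94.7 and 0 to 70.5 (1.75 ± 0.74, adjusted p = 0.050). Their shares of their pairs in RiboTag were 2.77% ± 1.59 of Cox7a1 with Cox7a2 and 1.23% ± 0.47 of Cox8b with Cox8a, against 1.12% ± 1.09 and 0.356% ± 0.280 in naive cultures. The summed markers of skeletal and cardiac muscle were at 194 to 403 CPM in RiboTag and at 0 to 44.5 CPM in naive cultures, and their part in these isoform levels was not tested. Ndufa4l2, a hypoxia-induced relative of Ndufa4, made up 11.7% ± 5.2 of its pair in RiboTag and 7.18% ± 5.42 in naive cultures, within its spread.

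In complex V, 12 of 17 subunits were lower and 1 higher, with a median of -0.56. Atp5md (chr19:47083471-47090647), a membrane subunit also known as DAPIT, read 796, 869, 918, 1011 and 1125 in RiboTag against 1436, 2280 and 2765 as the lowest, median and highest in naive cultures. The groups did not overlap and the log2 fold change was -1.27 ± 0.13 (adjusted p = 1.7e-10). Atp5e, the epsilon subunit of the central stalk, was lower by a similar margin (-1.09 ± 0.13, adjusted p = 1.2e-08), and Atp5l (-0.92) and the catalytic beta subunit Atp5b (-0.77) were lower without overlap. The alpha subunit Atp5a1 changed less (-0.30 ± 0.12, adjusted p = 0.038), and of the c subunit genes Atp5g1 was lower (-0.68) while Atp5g2 (-0.07) and Atp5g3 (-0.17) did not pass. Atp5h, a peripheral stalk subunit, was higher (0.32 ± 0.10, adjusted p = 0.0095), but RiboTag replicate 1 stood at 5010 with the other 4 at 3231 to 3534, and without that library neither Atp5h (adjusted p = 0.088) nor Ndufs8 (adjusted p = 0.064) passed. The number of members called higher then fell to 2, and the number called lower was 58. Atpif1, the inhibitor protein of the ATP synthase, is not a subunit and lies outside the 87. Only Cox6a2 and Cox6b2 among the 87 had a larger fall. Atpif1 went from 3829 to 6068 in naive cultures to 1194 to 1515 in RiboTag (-1.83 ± 0.10, adjusted p = 9.2e-17).

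Genes that build and fuel the complexes did not all share the direction of the subunits. Of 13 mitochondrially encoded subunits 8 were higher in RiboTag and none lower, led by mt-Nd4 (1.42 ± 0.11, adjusted p = 7.4e-09). Of 16 complex I assembly factors 1 was higher and 2 were lower (median 0.39), of 33 assembly factors of complexes II to V 1 was higher and 11 were lower (median -0.32), and of 17 TCA cycle enzymes 3 were higher and 2 lower (median 0.20). Of 22 genes of mitochondrial protein import none was higher and 14 were lower (median -0.64), and of 91 cytosolic ribosomal protein genes 89 were tested, with 83 lower and none higher (median -1.54). None of the 8 tested hypoxia-responsive mitochondrial genes passed. These counts are to be read against the 14.1% lower and 31.3% higher of all genes. For genes with a mean of at least 500 the shares were 47.8% lower and 24.5% higher.

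IL-1β moved few of these genes. Averaged over the 3 coatings, 6 of 87 members were lower in treated than in naive cultures and 0 were higher, among 20687 genes tested of which 4.02% were called lower and 3.42% higher; 11.5% of the genes with a mean of at least 500 were called lower, and the members' share of 6.90% lies between these. No member was called higher by limma-voom either. Most log2 fold changes were slightly negative, with 69 of 87 below 0 and a median of -0.09. Over all genes tested 11031 of 20687 were below 0 (median -0.04), and over those with a mean of at least 500, 1462 of 2949 (median 0.002). An unadjusted p under 0.05 was reached by 24 of the 87 members, 3665 of all 20687 genes and 1131 of those 2949. Complex medians ran from -0.19 in complex II to -0.05 in complex III. With library totals set equal 13 members were called lower, and with quantile normalization 10.

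Cox6b2, with a mean of 330 over all libraries, was lower with IL-1β on average over the coatings. It read 394, 431, 593, 698 and 1134 on naive Matrigel and 148, 160, 210, 339 and 527 with IL-1β. On laminin the values were 362, 372, 379, 584 and 732 against 126, 132, 235, 273 and 311, and on poly-L-ornithine 184, 342, 438, 450 and 799 against 68.5, 108, 131, 144 and 146. The groups were apart on laminin and poly-L-ornithine and overlapped on Matrigel. Over the coatings the log2 fold change was -1.42 ± 0.20 (adjusted p = 3.0e-07), and the call was kept in 41 of 41 alternative fits. The share of Cox6b2 in its pair with Cox6b1 went from 12.2% ± 5.1 to 5.36% ± 2.94 (SD, n = 15 each), and Cox6b1 itself did not pass.

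Ndufb11, a membrane-arm subunit encoded on the X chromosome (chrX:20615326-20617619), was lower by a smaller and steadier amount, from 1034, 1222 and 1540 as the lowest, median and highest in naive cultures to 687, 997 and 1146 with IL-1β. The locus overlaps the annotation of Rbm10, and whether counting used strand was not stated. Its log2 fold change was -0.42 ± 0.09 (adjusted p = 8.7e-04). Ndufb10 (chr17:24722060-24724423), another accessory subunit of the membrane arm, fell from a mean of 1005 to 766 (-0.40 ± 0.10, adjusted p = 0.0063), and Atp5k (chr5:108433246-108434399), the e subunit of the ATP synthase membrane part, from 3207 to 2637 (-0.28 ± 0.07, adjusted p = 0.0037). Naive and treated libraries overlapped for all 3, and each kept its call in 41 of 41 alternative fits. Ndufb10 was not lower in RiboTag, at 877 to 1830 (0.14 ± 0.15).

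**Figure D4:**
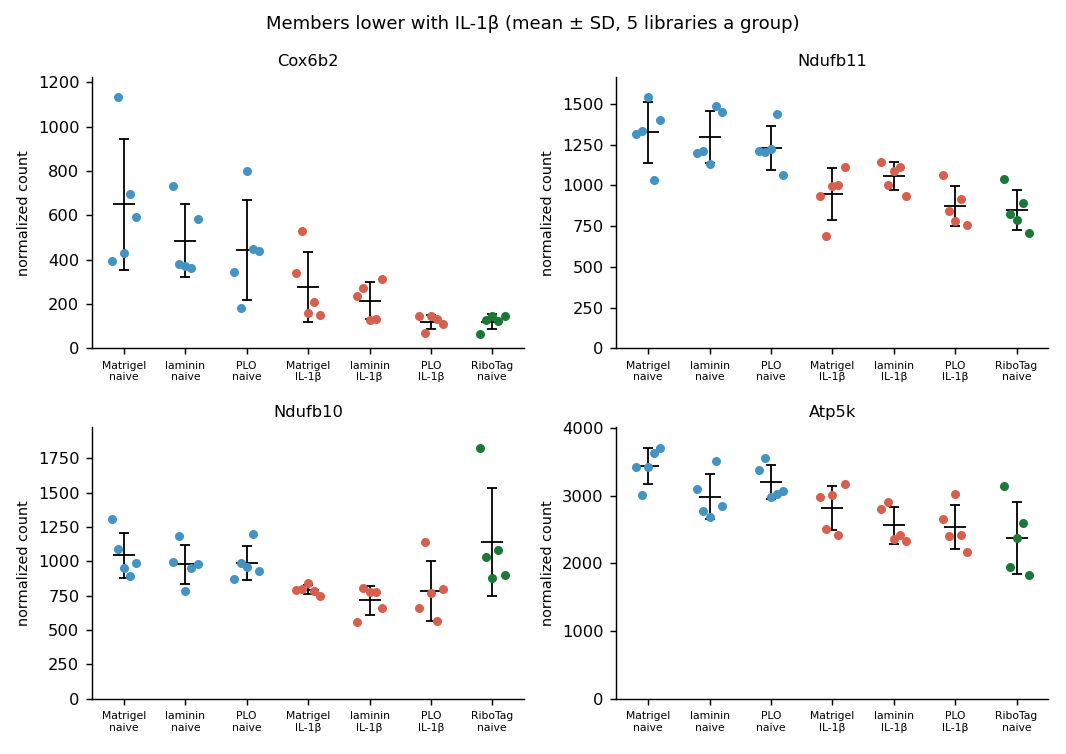
Normalized counts of 4 members in each library (y axis from 0) over the 7 groups; points are libraries, bars the mean ± SD of 5, and PLO is poly-L-ornithine. Treated cultures (red) lie lower on average than naive cultures (blue) on each coating, and Cox6b2 on poly-L-ornithine shows no overlap (184 to 799 against 68.5 to 146).

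The remaining calls rest on low values. Cox7a1 was at 0 in 11 of 15 treated libraries and in 3 of 15 naive ones, with highest values of 81.5 and 111 (-2.31 ± 0.68, adjusted p = 0.022), and the call was kept in the 40 alternative fits that tested it. The pseudogene row Ndufa11b read 0 to 31.2 in treated and 2.26 to 62.2 in naive cultures (-1.82 ± 0.57, adjusted p = 0.036), and its call was lost in 16 of 39 alternatives. Cox8b, at 0 in 7 of 15 treated and 2 of 15 naive libraries, had a value of -1.63 ± 0.63 that did not pass (adjusted p = 0.12). Beside these, smooth muscle markers were lower with IL-1β in 7 of 11 tested genes, with sums of 345 to 2236 CPM against 1137 to 5912, and 4 of 12 glial markers were lower and 1 higher, with sums of 788 to 2045 CPM against 1044 to 2973. Skeletal and cardiac muscle markers summed to 0 to 4.54 CPM in treated and 0 to 44.5 CPM in naive cultures. The part of these in the results was not tested.

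**Figure D5:**
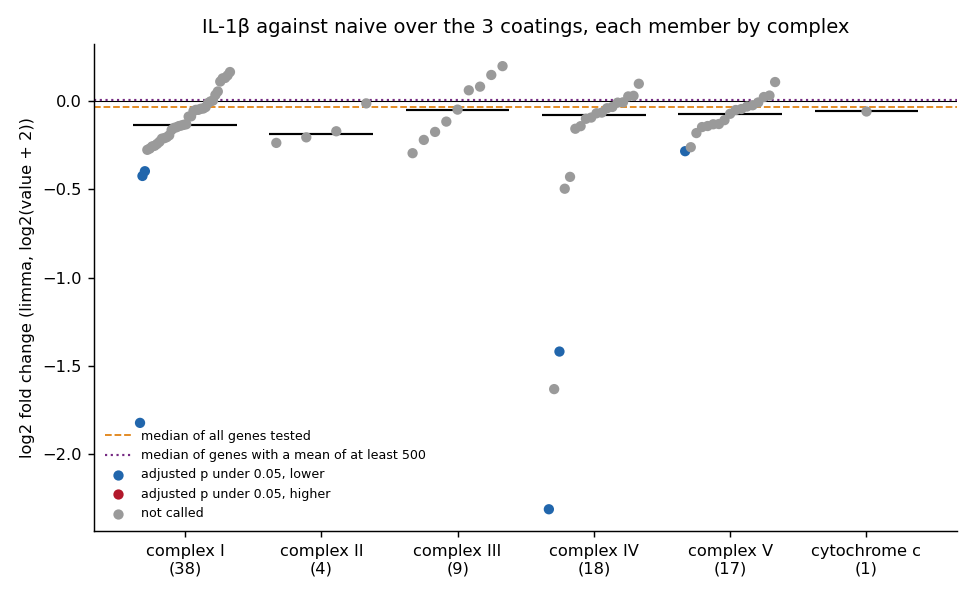
Log2 fold change of each member with IL-1β against naive, averaged over the 3 coatings (y axis; limma on log2(value + 2)), by complex with the number of members in brackets; black bars are medians, blue points passed the test as lower, the orange dashed line is the median of all genes tested and the purple dotted line that of genes with a mean of at least 500. Points cluster just below 0, with 69 of 87 below 0 and 6 blue.

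Of the 13 mitochondrially encoded subunits 5 (38.5%, beside 4.02% of all genes and 11.5% of those with a mean of at least 500) were lower with IL-1β and none higher. All 13 log2 fold changes were below 0 (median -0.20), and the summed level was 0.863 times that of naive cultures, against 0.917 for the nuclear-encoded members. Those called lower included mt-Cytb (-0.20 ± 0.04, adjusted p = 7.0e-04) and mt-Co2 (-0.25 ± 0.06, adjusted p = 0.0022), and Atpif1 was lower too (-0.26 ± 0.08, adjusted p = 0.030). Complex I assembly factors had 1 member higher and none lower, assembly factors of complexes II to V had 1 higher and 2 lower, protein import had 1 higher and none lower, and TCA cycle enzymes had 1 lower. None of the tested cytosolic ribosomal protein genes, regulators of mitochondrial biogenesis or hypoxia-responsive genes passed.

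Taken coating by coating, Cox6b2 was the only member called. It was lower on Matrigel (-1.29 ± 0.35, adjusted p = 0.030, where 0.822% of all genes were called lower) and on poly-L-ornithine (-1.77 ± 0.35, adjusted p = 7.0e-04, where 1.14% were), and on laminin its difference of -1.20 ± 0.35 just missed the test (adjusted p = 0.053, where 0.735% were). The count on Matrigel fell to 0 without naive replicate 2, 4 or 5 or IL-1β replicate 3 or 4, rose to 2 without naive replicate 1, and voom called 0 members on Matrigel and on poly-L-ornithine. On laminin 1 member was called without IL-1β replicate 2 or 5. That does not make the responses different: no member passed the test of the difference between the response on Matrigel and laminin and that on poly-L-ornithine, in which 0% of all genes passed, and for Cox6b2 that difference was 0.53 ± 0.42 (adjusted p = 0.96). In that test 2 members fell under an unadjusted p of 0.05, and voom called 0. On laminin, where limma called 0 members, 10 did so and voom again called 0.

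No member passed the main tests of the coating itself. Few or no genes of any kind passed them, so they cannot show that the coating leaves the family unchanged. Laminin was not tested against Matrigel. Between Matrigel with laminin and poly-L-ornithine, 0 of 87 members passed in naive cultures (limma, 0% of all genes passed; 6 members had an unadjusted p under 0.05, and voom called 0) and 0 in IL-1β-treated cultures (0.305% of all genes passed, with 4 members at an unadjusted p under 0.05 and 0 called by voom). The largest values among the members with an unadjusted p under 0.05 were those of Ndufs4, a complex I accessory subunit (0.40 ± 0.19, adjusted p = 0.94), in naive cultures and of Cox6b2 in treated ones (0.94 ± 0.30, adjusted p = 0.23).

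Some members have copies elsewhere in the genome under a related symbol, and counting could have split reads between them, which was not tested. Cox7c, a small complex IV subunit, had a mean of 1372 while its pseudogene row Cox7c-ps1 had 4432. Both were lower in RiboTag, by a log2 fold change of -1.20 ± 0.28 for Cox7c (adjusted p = 0.0015) and -0.88 ± 0.09 for Cox7c-ps1, and the sum of both gave -0.95 ± 0.09 (adjusted p = 4.4e-11). The members Cox6c2, Ndufb4c, Ndufa11b and Ndufs6b are short loci under 700 bases that resemble Cox6c, Ndufb4, Ndufa11 and Ndufs6, so their own values are uncertain. The annotated loci of Uqcrq, Atp5md and Cox6a2 overlap those of Gdf9, Taf5 and Itgad, and reads there could not be told apart if strand was not used. Summing 11 parent genes with their copies, an alternative added after seeing the data, again gave 55 lower and 5 higher in RiboTag, of 83 members, and 5 lower with IL-1β, since Ndufa11b was no longer a row of its own. The row Ndufb1-ps, left out by the rule although it is the only row of that name, was lower in RiboTag as well (-0.97 ± 0.16, adjusted p = 6.3e-06).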

How the data were processed

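QuantSeq 3′ libraries of 30 enteric glial cultures and 5 RiboTag pulldowns were analysed. The deposited signal values are read counts per gene divided by a size factor (normalized counts), made by the authors in Partek with cutadapt, STAR, mm10 and DESeq2, after a filter on low counts. Depth before scaling is unknown. Since scaled counts are not raw counts, limma 3.58.1 (R 4.3.3; trend, robust) was run on log2(value + 2), keeping genes with a maximum above 15, so fold changes of low genes are understated. p-values were Benjamini-Hochberg adjusted over all genes tested and called under 0.05. RiboTag was compared with the mean of the 3 naive coatings, and IL-1β with naive over and within coatings. The fits were tested on simulated data. Percent sums divide by each library's total.

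Members and gene lists were chosen with earlier results of these data known. Named by rule were up to 10 called members per direction with the largest change, the most abundant member of each complex, complex II, Cycs, Cyc1, Atpif1 and tissue isoforms; further members were named after their values were seen. Promoter sequences came from RefSeq (GRCm38.p6). Alternatives covered pseudocount, filter, scaling, model, blocks, comparison group and each library left out.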

Additional observations from a re-analysis of the deposited data

Results flagged for a closer look

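Single libraries stood apart from the other 4 of their group in 17 of 294 groups of 5 examined (36 named members and the sums), and chance alone flags about 1 in 20. In RiboTag, replicate 1 was highest for Atp5h (5010, others 3231 to 3534) and for Ndufb10 (1830, others 877 to 1083) and lowest for Ndufa4 (305, others 444 to 472). RiboTag replicate 3 was lowest for Sdhb (730, others 1086 to 1227), and replicate 5 was highest for Ndufa4l2 (125, others 29.3 to 52.3).

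In naive cultures, Atp5h was lowest in poly-L-ornithine replicate 3 (2376, others 2967 to 3181) and Cox5a highest in poly-L-ornithine replicate 4 (1648, others 1276 to 1383). Cox7c was lowest in Matrigel replicate 4 (332, others 1350 to 1687), Sdha lowest in Matrigel replicate 3 (958, others 1015 to 1023) and Cycs lowest in laminin replicate 4 (295, others 479 to 522).

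In IL-1β-treated cultures, Cox7a1 was at 4.67 in Matrigel replicate 5 and at 81.5 in laminin replicate 2, with the others of each group at 0. On laminin, Cox7b was highest in replicate 4 (1469, others 1072 to 1114), Ndufa11b in replicate 5 (17.1, others 0 to 3.23) and Ndufa4l2 in replicate 1 (203, others 0 to 56.0), while complex V had its lowest sum in replicate 3 (0.430%, others 0.471% to 0.477%). Sdhb was highest in poly-L-ornithine replicate 4 (1992, others 1473 to 1584).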

How the results depend on the processing

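The count of members lower in RiboTag was 55 and ran from 47 to 57 over 15 alternatives. The count of members higher was 5 and became 9 with equal library totals, 8 with limma-voom and 10 against IL-1β-treated cultures. Leaving out 1 library gave 52 to 58 lower and 2 to 7 higher, with 2 without RiboTag replicate 1 and 7 without Matrigel naive replicate 2. With the 50 most abundant other genes left out of the totals, the RiboTag to naive ratio of summed levels became 0.675 for all members, 0.712 for complex I, 0.562 for complex III, 0.623 for complex IV and 0.704 for complex V.

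The 6 members lower with IL-1β over the coatings became 13 with equal library totals, 10 with quantile normalization and 11 with a block by rank of library serial number, and 5 to 8 without 1 library. On Matrigel the count of 1 became 2 with a mean of at least 50 or the serial rank block, 0 with no trend, limma-voom or the replicate block, and 0 to 2 without 1 library. On laminin the count of 0 became 1 with quantile normalization, with only the groups compared or with the serial rank block, and 0 to 1 without 1 library. On poly-L-ornithine the count of 1 became 2 with a mean of at least 50 and 0 with limma-voom, and stayed 1 without any single library. The coating contrast in treated cultures gave 1 with the serial rank block. Fitting only the groups compared was not run for comparisons that already use all their groups. The cause of these changes was not tested.

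Same-numbered culture libraries did not deviate together (mean r -0.007, 0 of 75 pairs over 0.1), so the libraries were treated as unpaired. Culture libraries with the same rank by serial number within their groups had a mean r of 0.046 (0.003 to 0.120 over 75 pairs). For different ranks it was -0.012. What this rank reflects was not tested, and the main fits hold no block for it. With the replicate block 55 members were lower and 4 higher in RiboTag, and 6 were lower with IL-1β. Of 23 named results 16 were called under every alternative and 0 reversed. In RiboTag the call was lost for Ndufb8 in 18 of 35 alternatives, for Ndufs8 and Atp5h in 3 each, and for Cox6b2, Ndufb11 and Atp5k in 1 each, against IL-1β-treated cultures.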

Other observations

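Of 19 regulators of mitochondrial biogenesis, 4 were higher in RiboTag than in naive cultures (21.1%, beside 31.3% of all genes), 2 were lower and 13 did not pass, with a median log2 fold change of 0.09. The genes named here were chosen after their values were seen. The coactivator Ppargc1a, which drives mitochondrial biogenesis, read 50.1 to 216 normalized counts in the 5 RiboTag libraries and 0 to 16.04 in the 15 naive culture libraries, where 9 were at 0 (limma adjusted p = 1.1e-06). Its relative Ppargc1b read 276 to 904 against 0 to 109 (adjusted p = 8.4e-07). The nuclear receptor gene Esrrb was at 6.31 to 26.4 in RiboTag and was listed at 0 in all naive cultures. Gabpb1, the partner of the ETS factor Gabpa, was lower in RiboTag (-1.12 ± 0.34, adjusted p = 0.0072), and so was Slirp, which stabilizes mitochondrial mRNA (-0.85 ± 0.16, adjusted p = 3.2e-05). Smooth muscle markers were higher in the same RiboTag libraries, at 34942 to 65425 CPM against 1137 to 5912 CPM, and their part in these levels was not tested.

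Of the TCA cycle enzymes, Ogdh (0.72 ± 0.15), Idh3g (0.63 ± 0.18) and citrate synthase Cs (0.49 ± 0.15) were higher in RiboTag, and Suclg1 (-0.76 ± 0.18) and Mdh2 (-0.51 ± 0.12) were lower. Among assembly factors, Ecsit of complex I (1.30 ± 0.30) and Ttc19 of complex III (1.25 ± 0.22) were higher, while Uqcc3 of complex III (-1.48 ± 0.19), Sdhaf1 of complex II (-1.28 ± 0.29) and Cox20 of complex IV (-1.19 ± 0.18) were lower. With IL-1β the mitochondrial isocitrate dehydrogenase Idh2 fell from a mean of 571 to 312 (-0.90 ± 0.16, adjusted p = 2.7e-05), and Cox20 was lower as well (-0.50 ± 0.12, adjusted p = 0.0047).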
